A study of Mus musculus with 24 samples.

Results

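The 44 genes described here are ribosome biogenesis genes of the mouse, chosen by name for their known part in making ribosomes, with earlier results of these data known. All 44 were found, each under 1 gene ID, among the 48526 genes in the files. All 44 were among the 14560 genes tested, and each was above 1 CPM (counts scaled to library size, with TMM factors) in every library. Messenger RNA had been sequenced from T cells, labelled CD8+, of OT-1 mice. These mice bear a transgene for a T cell receptor that sees a peptide of ovalbumin on class I molecules. The peptide was given to whole spleen cell cultures at 2 µg/mL, and T cells were purified afterwards by negative selection, so other spleen cells were present during the culture. Every group shared the OT-1 transgene and the peptide. There were 4 libraries in each of 6 groups, namely TLR7, TLR2 and OVA (no agonist named) at 72 h, and TLR7, TLR2 and OVA at 24 h. Agonists were added 1 h before the peptide. Of those the protocol names, Pam3CSK4 at 300 ng/mL acts on TLR2, and gardiquimod at 3 µg/mL and R848 at 10 µg/mL act on TLR7. Which TLR7 agonist was sequenced is not stated, and no age or sex of the mice is given. Neither do the labels say whether replicates came from separate mice or cultures, and the spread behind each p-value may therefore be technical. The questions are how these genes differ between 72 h and 24 h of activation, and whether a TLR agonist changes their level.

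Ribosomes are built mostly in the nucleolus. RNA polymerase I copies the ribosomal DNA into a long precursor, which the small-subunit processome and the box C/D and box H/ACA small nucleolar ribonucleoproteins (snoRNPs) cut and modify. Further assembly factors then carry the small and the large subunit separately towards the cytoplasm. T cells that have met antigen enlarge their nucleoli and make many more ribosomes before they divide, and the transcription factor Myc is known to drive many of these genes. The 44 genes fall into 3 for RNA polymerase I, 5 nucleolar regulators, 18 for the small subunit, 3 for box C/D and 4 for box H/ACA snoRNPs, and 11 for the large subunit.

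Library totals ran from 10.5 to 27.1 M counts, and 5 libraries were shallow, at 10.5 to 11.7 M (OVA 24 h replicate 4, TLR2 24 h replicate 4, TLR7 24 h replicate 2, and TLR7 72 h replicates 1 and 2). On the first principal component of the 14516 tested genes other than the 44, which held 60.2% of the variance, 8 libraries lay in the middle, at -20.6 to -1.28. The clear 24 h libraries lay at 85.0 to 99.0 and the clear 72 h ones at -90.2 to -55.8, with 8 libraries each. The middle libraries were replicates 1, 3 and 4 of TLR2 72 h, replicate 4 of OVA 72 h, replicates 3 and 4 of TLR7 24 h and replicates 1 and 3 of OVA 24 h. The labels do not say why they lie there, and whether any of them is a mixture or carries a wrong time label was not tested. Their labels were kept, so each group mean and fold change that includes them rests on those labels, and results are given with and without them. Without them TLR2 72 h is 1 library, assumed to vary like the other groups. All 7 CD8 T cell markers listed (among them Cd3e and Cd8a) were detected in every library, summing to 2980 to 3679 CPM in the clear 72 h libraries and 1297 to 2374 CPM in the clear 24 h ones. The 8 B cell markers summed to 3.90 to 42.8 CPM at clear 72 h, against 41.4 to 234 CPM at clear 24 h, with Ms4a1 and Fcer2a at 0 in 3 libraries each. Macrophage and monocyte markers summed to at most 64.3 CPM and dendritic cell markers to at most 8.86 CPM in any library. CD4 T cell markers summed to 1.32 to 4.13 CPM at clear 72 h, against 10.6 to 23.5 CPM at clear 24 h, with Cd4 itself at a median of 0.519 CPM. NK and erythroid markers reached at most 5.13 and 15.6 CPM. The part of these other cells in the results below was not tested.

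Ribosome biogenesis genes took a smaller share of the messenger RNA at 72 h than at 24 h in the clear libraries. They held 0.565% to 0.984% of all counts in the clear 72 h libraries, against 2.71% to 3.04% in the clear 24 h libraries. The middle libraries held 1.64% to 2.00% where labelled 24 h and 1.82% to 2.08% where labelled 72 h. Among the middle libraries alone, the share was thus not smaller at 72 h. The mean log2 CPM over the 44 genes, a score per library, was 6.68, 6.74, 6.57 and 6.82 in TLR7 72 h replicates 1 to 4, and values below are given in the same order. It was 7.66, 6.32, 7.81 and 7.82 at TLR2 72 h and 6.58, 6.20, 5.95 and 7.65 at OVA 72 h. At 24 h it was 8.51, 8.38, 7.65 and 7.78 with TLR7 agonist, 8.41, 8.32, 8.39 and 8.42 with TLR2 agonist and 7.52, 8.45, 7.65 and 8.31 with peptide alone. The 4 TLR7 72 h libraries and the 4 TLR2 24 h libraries each lay close together, with group scores of 6.70 ± 0.11 and 8.39 ± 0.04 (SD, n = 4 each). The other groups were spread over both middle and clear libraries, at 7.40 ± 0.72 for TLR2 72 h, 6.60 ± 0.75 for OVA 72 h, 8.08 ± 0.43 for TLR7 24 h and 7.98 ± 0.46 for OVA 24 h. The score has no test of its own here. In RNA from bulk cells, fewer cells that express a gene and less of its RNA per cell cannot be told apart.

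**Figure D1:**
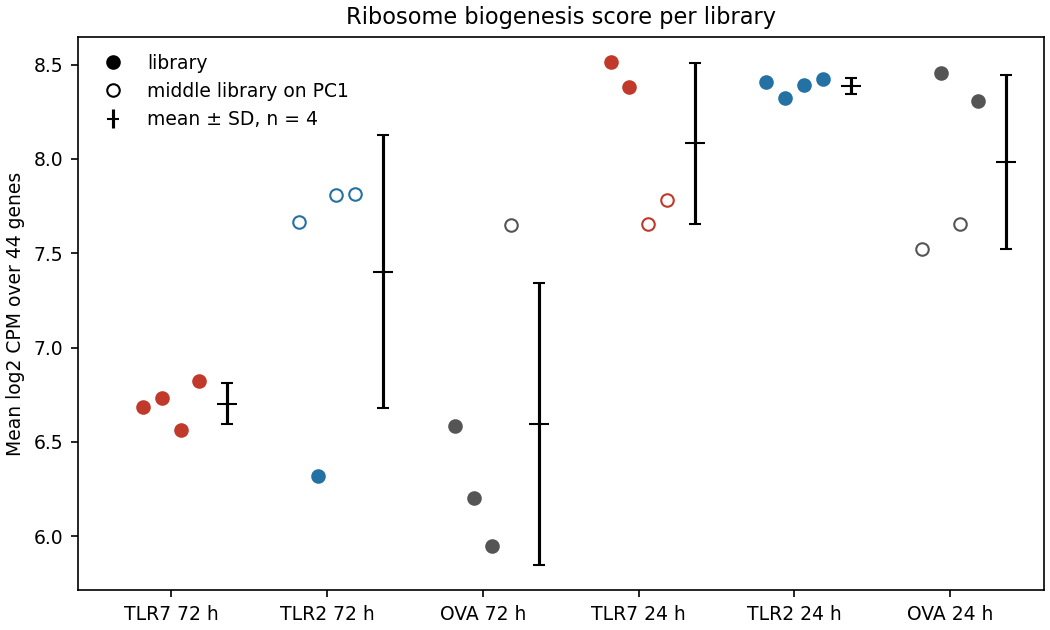
Mean log2 CPM of the 44 ribosome biogenesis genes (y axis) in each of the 24 libraries, by group (x axis), with the group mean and SD beside the points and open circles for the 8 middle libraries. Clear 72 h libraries sit at 5.95 to 6.82, clear 24 h libraries at 8.31 to 8.51, and the middle ones at 7.52 to 7.82 whichever time they are labelled with.

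With TLR7 agonist, all 44 genes fell between 24 h and 72 h, that is, were lower at 72 h at an adjusted p under 0.05 (edgeR's quasi-likelihood test, adjusted over all genes tested), whereas 24.2% of all genes tested were lower. Their median log2 fold change, 72 h over 24 h, was -1.29, against -0.0070 over all genes tested, and it ran from -2.78 for Utp20 to -0.44 for Nob1. For all 44, each TLR7 72 h library lay below each TLR7 24 h library, as was the case for 26.6% of all genes tested. With TLR2 agonist, 25 of the 44 fell, where 17.4% of all genes tested did. The other 19 had negative values too, and the median of the 44 was -0.90, against -0.0065 over all genes tested. For 41 of the 44, the TLR2 72 h and 24 h libraries did not overlap, as for 24.0% of all genes tested. With peptide alone, all 44 fell, where 10.4% of all genes tested did, with a median of -1.32 against 0.087 over all genes tested. There the libraries overlapped for 35 of the 44, and 9 did not overlap, where 3.85% of all genes tested lay lower without overlap. The 44 rose in none of the 3 comparisons. The 25 genes that fell in the TLR2 cultures thus fell in all 3.

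How many genes passed depended on which libraries were used. Adjusted p-values of the 44 were 0.000868 to 0.0449 with TLR7 agonist, 0.0194 to 0.161 with TLR2 agonist and 0.0333 to 0.0366 with peptide alone. The middle libraries lie between the times on the axis that separates the times, so a fit without them gives a wider difference and smaller p-values by construction. In that fit all 44 fell in the TLR7 and OVA cultures, at adjusted p-values of 1.29e-08 to 0.0213 (TLR7) and 5.98e-08 to 0.00921 (OVA). Of all genes tested in that fit, 25.4% (TLR7) and 22.3% (OVA) fell. The medians of the 44 were then -1.61 (TLR7), -2.16 (TLR2) and -2.14 (OVA). For TLR2 only the size is given, since TLR2 72 h is then 1 library. In the OVA cultures, leaving out any 1 of the clear libraries (24 h replicates 2 or 4, 72 h replicates 1, 2 or 3) left 0 of the 44 past the threshold, where at most 0.798% of all genes tested passed. In the TLR2 cultures, leaving out TLR2 24 h replicate 4 or TLR2 72 h replicate 2 left 0, where 22.8% and 9.30% of all genes tested passed. Leaving out TLR2 24 h replicates 1, 2 or 3 left 2, 10 or 6, and TLR2 72 h replicate 1 left 4, where 23.2% to 29.4% of all genes tested passed. Without the 5 shallow libraries, which are all clear ones, 0 of the 44 passed in any of the 3, with medians of -1.24 (TLR7), -0.89 (TLR2) and -1.22 (OVA), and 0.0334%, 19.0% and 0% of all genes tested passed.

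**Figure D2:**
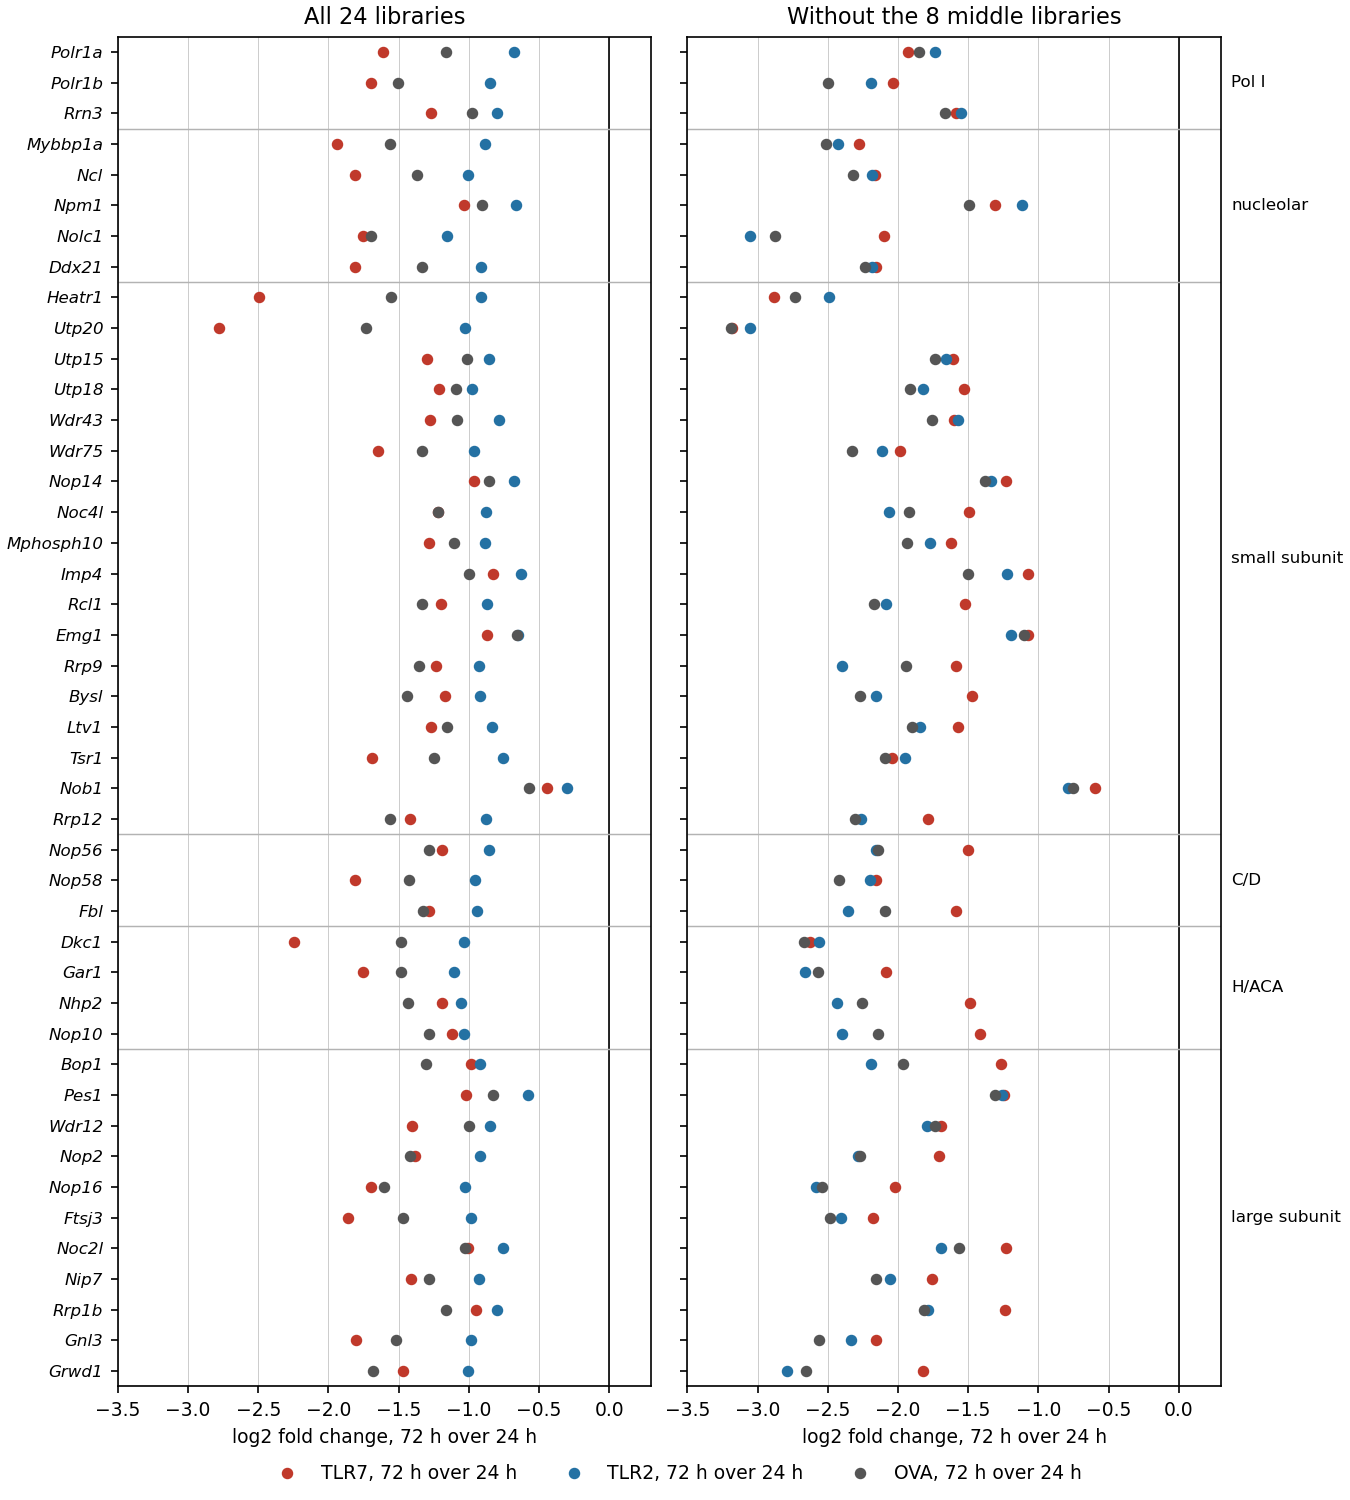
Log2 fold change of each of the 44 genes (rows, by role), 72 h over 24 h, in the TLR7, TLR2 and OVA cultures, with all 24 libraries (left) and without the 8 middle ones (right). Every point lies below 0 in both panels; with all libraries the values run from -2.78 to -0.30, and Utp20 has the lowest value in the TLR7 and OVA cultures.

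RNA polymerase I was represented by Polr1a and Polr1b, its 2 largest subunits, and by Rrn3, which brings the enzyme to the ribosomal DNA promoter. Polr1a (chr6:71909053-71984935, plus strand, GRCm38) had the highest mean CPM of them. With TLR7 agonist, Polr1a measured 83.6, 88.9, 78.7 and 83.4 CPM at 72 h, against 343, 296, 185 and 196 CPM at 24 h. With TLR2 agonist, Polr1a measured 184, 74.8, 175 and 199 CPM at 72 h, against 263, 238, 258 and 255 CPM at 24 h. With OVA peptide alone, Polr1a measured 81.9, 63.6, 54.7 and 171 CPM at 72 h, against 169, 199.8, 179 and 284 CPM at 24 h. The TLR7 and TLR2 groups did not overlap between the times, and the OVA groups overlapped by 1 library, OVA 72 h replicate 4 reaching 171 CPM. The log2 fold change of Polr1a, 72 h over 24 h, was -1.61 ± 0.31 (SE; adjusted p = 0.00125) with TLR7 agonist, -0.68 ± 0.31 (SE; adjusted p = 0.0811) with TLR2 agonist and -1.16 ± 0.31 (SE; adjusted p = 0.0333) with peptide alone. Without the middle libraries these were -1.93, -1.74 and -1.85. All 3 genes fell in the TLR7 and OVA cultures and 1, Rrn3, in the TLR2 cultures, with medians of -1.61 (TLR7), -0.80 (TLR2) and -1.16 (OVA).

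The nucleolar regulators were Npm1 (nucleophosmin) and Ncl (nucleolin), abundant proteins of the nucleolus, Mybbp1a, a Myb-binding nucleolar protein, Nolc1, a snoRNP chaperone, and Ddx21, an RNA helicase. Npm1 and Ncl alone made up 43.3% to 57.2% of the CPM of the 44 genes in each library. Npm1 (chr11:33152287-33163206, minus strand) had the highest level of all 44 per kilobase of transcript. With TLR7 agonist, Npm1 measured 2751, 2907, 3002 and 2864 CPM at 72 h, against 6543, 7773, 4272 and 4965 CPM at 24 h. With TLR2 agonist, Npm1 measured 4310.4, 3256, 5369.8 and 5239.7 CPM at 72 h, against 6513, 8699.8, 6522 and 7035 CPM at 24 h. With OVA peptide alone, Npm1 measured 2704, 2902, 1580.4 and 4429.7 CPM at 72 h, against 3963, 8202, 3956 and 5597 CPM at 24 h. All 72 h libraries were below all 24 h libraries with TLR7 and with TLR2 agonist, whereas OVA 72 h replicate 4 lay within the OVA 24 h range. The 72 h over 24 h values of Npm1 on the log2 scale were -1.03 ± 0.27 (SE; adjusted p = 0.00563) with TLR7 agonist, -0.66 ± 0.27 (SE; adjusted p = 0.052) with TLR2 agonist and -0.90 ± 0.27 (SE; adjusted p = 0.0348) with peptide alone, so Npm1 missed the threshold in the TLR2 cultures. In the TLR7 cultures Ddx21 measured 369, 407, 359.8 and 406 CPM at 72 h, against 1691, 1758, 933 and 1032 CPM at 24 h. The lowest 24 h library was well above the highest 72 h one, and the log2 fold change was -1.81 ± 0.36 (SE; adjusted p = 0.00137). In the OVA cultures Mybbp1a measured 277, 193, 184 and 716 CPM at 72 h, against 739, 1152, 799 and 1358 CPM at 24 h, a log2 fold change of -1.56 ± 0.40 (SE; adjusted p = 0.0333). The groups did not overlap, although OVA 72 h replicate 4 came close to the lowest 24 h library. All 5 fell in the TLR7 and OVA cultures, and 2, Ncl and Ddx21, in the TLR2 cultures.

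The small-subunit processome and its successors made up the largest role. Wdr43, a component of the subcomplex that joins the precursor first, had the highest mean CPM of the 18 (chr17:71615895-71659031, plus strand). With TLR7 agonist, Wdr43 measured 175, 196, 166 and 216 CPM at 72 h, against 550.0, 599, 319 and 354 CPM at 24 h. With TLR2 agonist, Wdr43 measured 304, 167, 339 and 370.2 CPM at 72 h, against 481, 588, 465 and 497 CPM at 24 h. With peptide alone, Wdr43 measured 163, 146, 113 and 307 CPM at 72 h, against 278, 509, 304 and 451 CPM at 24 h. Both agonist cultures were separated by time, and OVA 72 h replicate 4 lay within the OVA 24 h values. On the log2 scale Wdr43 changed by -1.27 ± 0.29 (SE; adjusted p = 0.00264) with TLR7 agonist, -0.78 ± 0.29 (SE; adjusted p = 0.0365) with TLR2 agonist and -1.08 ± 0.29 (SE; adjusted p = 0.0333) with peptide alone.

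Heatr1, which belongs to the same early subcomplex and in human cells is also needed for RNA polymerase I transcription, and Utp20, a large scaffold protein of the processome, had the lowest fold changes of the 44 in the TLR7 cultures. With TLR7 agonist, Heatr1 measured 78.5, 88.6, 74.5 and 84.0 CPM at 72 h, against 574, 632, 297 and 333 CPM at 24 h. With TLR2 agonist, Heatr1 measured 279.9, 81.9, 292 and 344 CPM at 72 h, against 445, 528, 446 and 462 CPM at 24 h. Without agonist, Heatr1 measured 70.1, 69.7, 55.2 and 272 CPM at 72 h, against 237, 399.7, 268 and 471 CPM at 24 h. Heatr1 (chr13:12395027-12440289, plus strand) ran from 55.2 to 88.6 CPM in the clear 72 h libraries and stood at 237 CPM or more in each of the others. The 3 log2 fold changes of Heatr1 were -2.49 ± 0.45 (SE; adjusted p = 0.000868) with TLR7 agonist, -0.92 ± 0.43 (SE; adjusted p = 0.0917) with TLR2 agonist and -1.56 ± 0.44 (SE; adjusted p = 0.0333) with peptide alone, and without the middle libraries -2.88, -2.49 and -2.73. With TLR7 agonist, Utp20 measured 47.0, 57.1, 45.4 and 52.4 CPM at 72 h, against 443, 478, 216 and 246 CPM at 24 h. With TLR2 agonist, Utp20 measured 229, 45.6, 226 and 257 CPM at 72 h, against 369.6, 430.4, 366 and 376 CPM at 24 h. In OVA cultures, Utp20 measured 43.9, 42.2, 27.1 and 219.6 CPM at 72 h, against 193, 298, 219.7 and 398 CPM at 24 h. Utp20 (chr10:88746607-88826804, minus strand) ran from 27.1 to 57.1 CPM in the clear 72 h libraries and stood at 193 CPM or more elsewhere. For Utp20 the log2 fold changes were -2.78 ± 0.55 (SE; adjusted p = 0.00128) with TLR7 agonist, -1.03 ± 0.51 (SE; adjusted p = 0.112) with TLR2 agonist and -1.73 ± 0.52 (SE; adjusted p = 0.0361) with peptide alone, and without the middle libraries -3.18, -3.05 and -3.19. The median over the clear 24 h libraries was 8.51 times that over the clear 72 h libraries for Utp20 and 6.10 times for Heatr1, against a median of 3.41 times over the 44 genes.

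**Figure D3:**
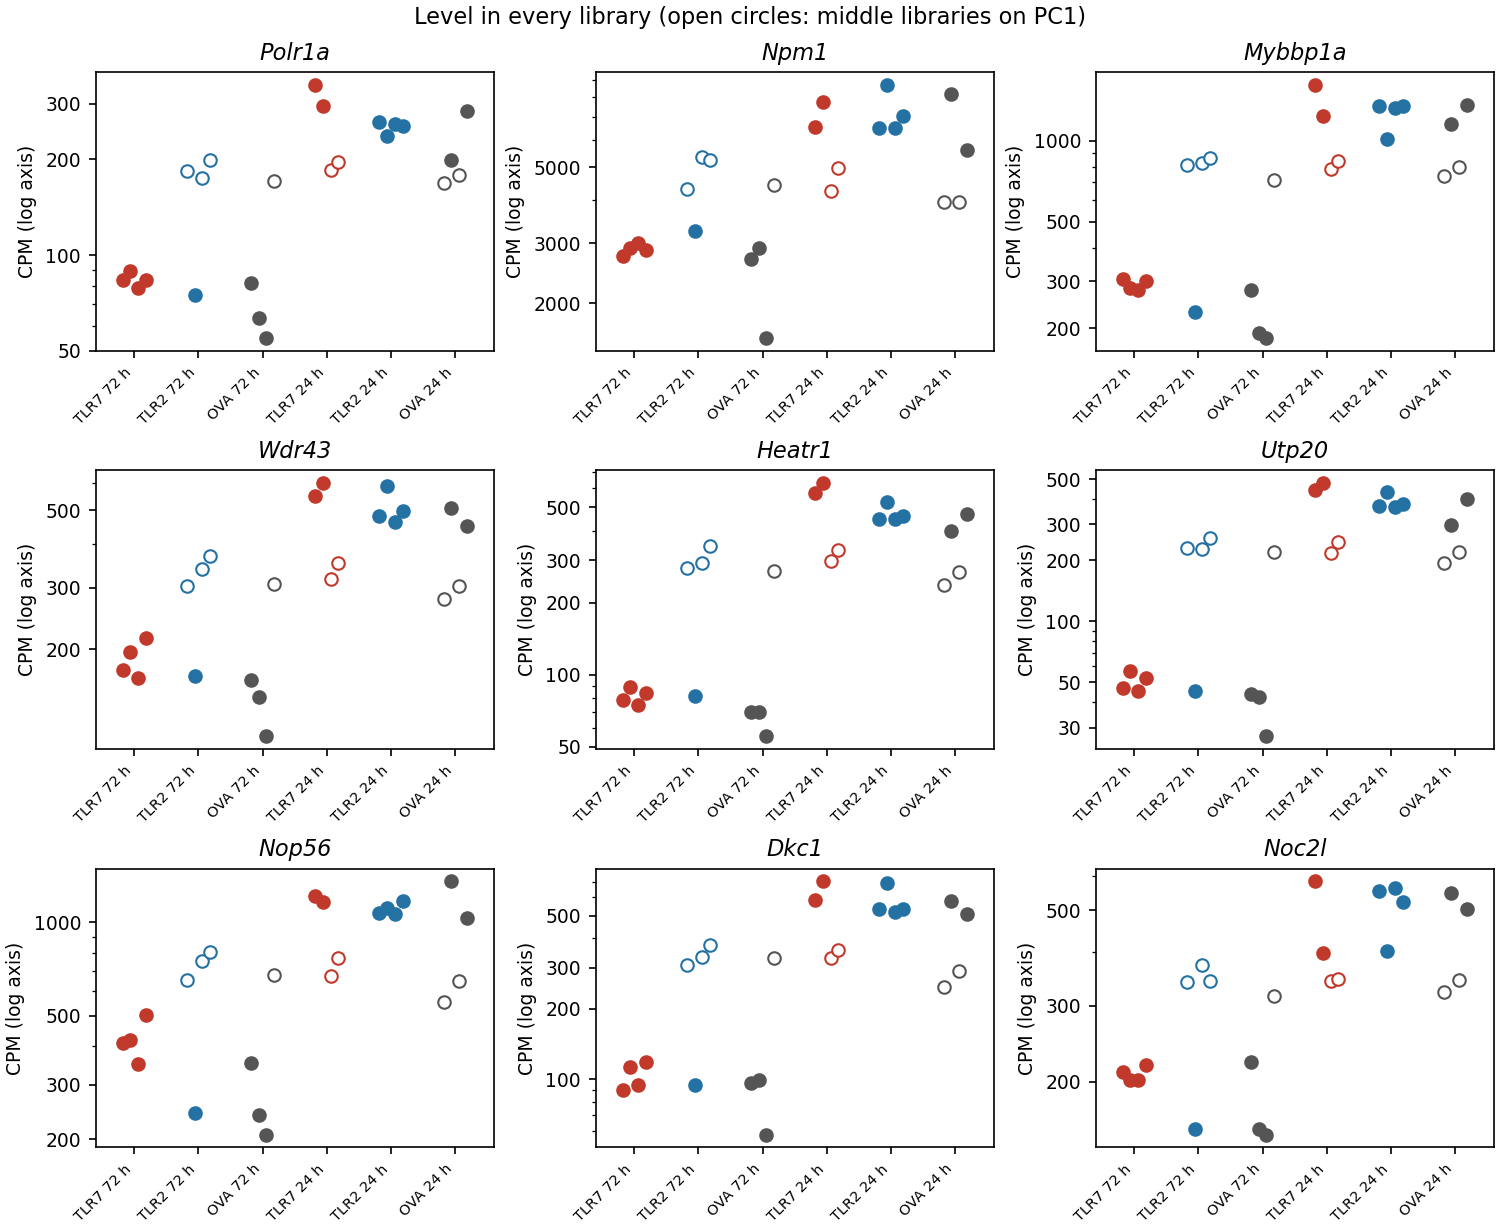
CPM on a log axis in each of the 24 libraries, by group, for 9 of the genes named in the text, with open circles for the 8 middle libraries. For each gene the clear 72 h libraries are the lowest and the clear 24 h libraries the highest; Utp20 spans 27.1 to 478 CPM and Noc2l 151 to 584 CPM.

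In the TLR2 cultures the smallest adjusted p-values belonged to 4 small-subunit genes. Emg1, a methyltransferase that modifies the small-subunit RNA, measured 193, 125, 221 and 205 CPM at 72 h, against 291, 269, 300.4 and 306 CPM at 24 h, a log2 fold change of -0.65 ± 0.20 (SE; adjusted p = 0.0194). Utp18, a processome component, measured 90.9, 47.6, 108 and 103 CPM at 72 h, against 164, 201, 157 and 164 CPM at 24 h (log2 fold change -0.97 ± 0.31 SE, adjusted p = 0.0232). For both, replicate 2 was the lowest of the 72 h libraries and none reached a 24 h library. Utp15, of the same early subcomplex as Wdr43, measured 119, 59.6, 121 and 123 CPM at 72 h, against 196, 203, 181 and 185 CPM at 24 h (log2 fold change -0.85 ± 0.28 SE, adjusted p = 0.0245). Nop14, a processome factor, measured 159, 97.2, 186 and 182 CPM at 72 h, against 246, 274, 233 and 247 CPM at 24 h (log2 fold change -0.68 ± 0.23 SE, adjusted p = 0.0288). Again the groups did not overlap and replicate 2 was lowest. Without the middle libraries, which leaves that replicate alone, the 4 log2 fold changes were -1.19, -1.82, -1.66 and -1.34. In the OVA cultures Imp4, which helps the U3 snoRNA pair with the precursor, measured 83.2, 67.5, 72.4 and 129 CPM at 72 h, against 139, 219, 141 and 205 CPM at 24 h, a log2 fold change of -0.998 ± 0.22 (SE; adjusted p = 0.0333). Its groups did not overlap. The late factor Nob1, the nuclease that makes the mature end of the small-subunit RNA, changed least of the 44. It measured 91.1, 78.7, 78.5 and 74.8 CPM at TLR7 72 h, against 146, 99.3, 95.2 and 98.5 CPM at TLR7 24 h, a log2 fold change of -0.44 ± 0.17 (SE; adjusted p = 0.0449). The highest 72 h library lay just below the lowest 24 h one. Of the 18 small-subunit genes, 18 fell in the TLR7 cultures, 10 in the TLR2 cultures and 18 in the OVA cultures, with medians of -1.25, -0.87 and -1.18.

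The box C/D snoRNP genes Nop56, Nop58 and Fbl (fibrillarin, the methyltransferase) guide methylation of the precursor. With TLR7 agonist, Nop56 measured 407, 419.6, 349 and 504 CPM at 72 h, against 1219, 1168, 674 and 766 CPM at 24 h. With TLR2 agonist, Nop56 measured 650.3, 244, 751 and 803 CPM at 72 h, against 1076, 1116, 1068 and 1170.0 CPM at 24 h. Without an agonist, Nop56 measured 351, 239, 207 and 675 CPM at 72 h, against 555, 1358, 647 and 1032 CPM at 24 h. Nop56 (chr2:130274430-130279313, plus strand) stood at 207 to 351 CPM in the clear TLR2 and OVA 72 h libraries, and the 4 TLR7 72 h libraries lay at the top of that range or above it. Nop56 had log2 fold changes of -1.19 ± 0.36 (SE; adjusted p = 0.0136) with TLR7 agonist, -0.86 ± 0.36 (SE; adjusted p = 0.0614) with TLR2 agonist and -1.29 ± 0.36 (SE; adjusted p = 0.0333) with peptide alone. All 3 fell in the TLR7 and OVA cultures and 1, Fbl, in the TLR2 cultures. The box H/ACA genes Dkc1, Gar1, Nhp2 and Nop10 encode the pseudouridine synthase (Dkc1) and its core partners. With TLR7 agonist, Dkc1 measured 90.1, 113, 94.7 and 119 CPM at 72 h, against 586, 703, 329.7 and 357 CPM at 24 h. With TLR2 agonist, Dkc1 measured 309, 94.5, 334 and 376 CPM at 72 h, against 534, 692, 518 and 536 CPM at 24 h. In the OVA cultures, Dkc1 measured 96.4, 98.7, 57.8 and 329 CPM at 72 h, against 248, 581, 290.1 and 507 CPM at 24 h. Dkc1 (chrX:75095854-75109777, plus strand) ran from 57.8 to 119 CPM in the clear 72 h libraries and stood at 248 CPM or more in all others. The corresponding values of Dkc1 (log2, 72 h over 24 h) were -2.25 ± 0.46 (SE; adjusted p = 0.00146) with TLR7 agonist, -1.03 ± 0.44 (SE; adjusted p = 0.0651) with TLR2 agonist and -1.48 ± 0.45 (SE; adjusted p = 0.0357) with peptide alone. All 4 fell in the TLR7 and OVA cultures and 3 (Gar1, Nhp2 and Nop10) in the TLR2 cultures, with medians of -1.47, -1.04 and -1.46.

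The large-subunit genes include Pes1, Bop1 and Wdr12, which form 1 complex, the methyltransferases Nop2 and Ftsj3, Gnl3 (nucleostemin), and Nop16, Nip7, Rrp1b, Grwd1 and Noc2l. Noc2l, whose yeast counterpart accompanies the early large-subunit particle, had the highest mean CPM of the 11 (chr4:156236010-156247616, plus strand). With TLR7 agonist, Noc2l measured 210.3, 202, 202 and 218 CPM at 72 h, against 584, 399, 343 and 347 CPM at 24 h. With TLR2 agonist, Noc2l measured 341, 155, 372 and 342 CPM at 72 h, against 556, 402, 564 and 522 CPM at 24 h. With OVA peptide only, Noc2l measured 222, 155, 151 and 316 CPM at 72 h, against 323, 549, 345 and 505 CPM at 24 h. The 72 h libraries were below the 24 h libraries in each of the 3 cultures, although OVA 72 h replicate 4 lay just under the lowest OVA 24 h library. Noc2l gave log2 fold changes of -1.01 ± 0.26 (SE; adjusted p = 0.00611) with TLR7 agonist, -0.75 ± 0.26 (SE; adjusted p = 0.031) with TLR2 agonist and -1.03 ± 0.26 (SE; adjusted p = 0.0333) with peptide alone. In the OVA cultures Nop16 measured 50.6, 33.2, 25.3 and 103 CPM at 72 h, against 102, 245, 112 and 188 CPM at 24 h, with replicate 4 at 72 h above replicate 1 at 24 h. Its log2 fold change was -1.61 ± 0.40 (SE; adjusted p = 0.0333). Of the 11, all fell in the TLR7 and OVA cultures and 8 in the TLR2 cultures, with medians of -1.40, -0.92 and -1.31.

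The clear and middle libraries, which were told apart on the other genes, also differed in the 44, given here as a description. Except where given, the shares of all genes tested with the patterns below were not counted. The libraries were split on the axis that holds most of the variance of the other genes. The counts are therefore not to be read as particular to the 44. For 43 genes each clear 24 h library was above each clear 72 h library, Nob1 being the exception at 83.5 to 146 CPM, against 55.4 to 91.1 CPM. For 41 genes all 8 middle libraries lay between the clear ones (not for Rrp9, Bop1 and Nob1). By group means, each of the 44 was higher in every 24 h group than in every 72 h group. It was highest in TLR2 24 h for 42 genes and in TLR7 24 h for 2, and lowest in OVA 72 h for 33 and in TLR7 72 h for 11. These orders include the middle libraries, which are spread unevenly over the groups. Without them the mean score at 24 h was 8.45 (TLR7), 8.39 (TLR2) and 8.38 (OVA). At 72 h it was then 6.70 (TLR7), 6.32 (TLR2, 1 library) and 6.25 (OVA). Within a time, groups next to each other in a gene's order overlapped in CPM, except for Npm1, whose 4 TLR7 72 h libraries (2751 to 3002 CPM) lay below the 4 TLR2 72 h libraries (3256 to 5369.8 CPM). Groups further apart in the order could be separate too. At 24 h, 1 of the 44, Gar1, had its TLR7 libraries (74.2 to 133.3 CPM) below its TLR2 libraries (133.7 to 145.3 CPM). Of all genes tested, 8.51% lay lower without overlap there. Per kilobase of the principal transcript, the mean level over the 24 libraries ran from 15.0 CPM for Wdr12 to 2943 CPM for Npm1, with Ncl next at 518 CPM per kb. Npm1 and Ncl held the first 2 ranks per kilobase of coding sequence as well, but long untranslated ends changed other ranks, Wdr12 moving from 44 to 22.

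Ribosome biogenesis genes outside the 44 mostly fell as well. Of 113 tested (118 listed), 93 fell and 3 rose in the TLR7 cultures, 73 fell and 0 rose in the TLR2 cultures, and 81 fell and 1 rose in the OVA cultures. Their medians were -1.05, -0.73 and -0.93. Among them the 45 large-subunit genes fell in 40, 32 and 37 cases (TLR7, TLR2 and OVA), the 36 small-subunit genes in 29, 20 and 26, and the 13 for RNA polymerase I and ribosomal DNA in 10, 5 and 4. The 8 snoRNP assembly genes fell in 5, 7 and 7 cases, and the 11 tested exosome genes, which trim the precursor, in 9, 9 and 7. Of the 77 genes for cytosolic ribosomal proteins, the parts of which ribosomes are made, 54 were higher at 72 h with TLR7 agonist, 13 with TLR2 agonist and 3 with peptide alone, and 0 were lower. Of all genes tested, 19.0%, 21.7% and 8.17% were higher, so the ribosomal protein counts were above the share of all genes in the TLR7 cultures and below it in the others. Their medians were 0.52, 0.31 and 0.31. Of 30 genes of DNA replication and the G1/S step, 5, 29 and 13 fell, and 2, 0 and 0 rose, with medians of -0.48, -1.23 and -0.84. The call counts of these lists are to be set beside the shares of all genes given above.

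Myc itself passed the test in none of the 3 cultures. With TLR7 agonist, Myc measured 490.1, 380.3, 470.4 and 394 CPM at 72 h, against 682, 513, 424 and 508 CPM at 24 h. With TLR2 agonist, Myc measured 371, 344, 426 and 512 CPM at 72 h, against 445, 374, 399 and 443 CPM at 24 h. In cultures without agonist, Myc measured 432, 245, 159 and 314 CPM at 72 h, against 389, 348, 381 and 326 CPM at 24 h. The 2 times overlapped in each culture. Between the times Myc had log2 fold changes of -0.29 ± 0.21 (SE; adjusted p = 0.261) with TLR7 agonist, -0.0073 ± 0.21 (SE; adjusted p = 0.981) with TLR2 agonist and -0.33 ± 0.21 (SE; adjusted p = 0.243) with peptide alone. Its median was 387 CPM over the clear 72 h libraries and 421 CPM over the clear 24 h ones, and the 24 h median was 1.09 times the 72 h one. Without the middle libraries the 3 log2 fold changes were -0.45, -0.25 and -0.24. Adjusted p-values were then 0.198 with TLR7 agonist and 0.539 with peptide alone. None is given with TLR2 agonist, where TLR2 72 h is 1 library. A miss of the threshold does not show that Myc was equal at the 2 times. At 24 h the 4 TLR7 libraries lay above the 4 OVA libraries for Myc, and 6.64% of all genes tested did not overlap there. The log2 fold change, TLR7 24 h over OVA 24 h, was 0.56 ± 0.21 (SE; adjusted p = 0.31).

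Between agonist and peptide alone at 72 h, no ribosome biogenesis gene passed the threshold. TLR2 72 h against OVA 72 h gave 0 of 44 (0% of all genes tested), with 44 positive log2 fold changes, a median of 0.71 and 28 at an unadjusted p under 0.05. Of all genes tested, 11.6% were at an unadjusted p under 0.05, with a median of -0.038. DESeq2 also called 0 of the 44, where it called 0.563% of all genes tested. The smallest p-values were those of Imp4 and Tsr1, a late small-subunit factor. Imp4 measured 148, 86.8, 152 and 147 CPM at TLR2 72 h, against 83.2, 67.5, 72.4 and 129 CPM at OVA 72 h (log2 fold change 0.60 ± 0.21 SE, adjusted p = 0.34). Tsr1 measured 217, 93.6, 252 and 309.8 CPM at TLR2 72 h, against 102, 77.9, 60.4 and 212 CPM at OVA 72 h (log2 fold change 0.95 ± 0.35 SE, adjusted p = 0.353). In both genes the 3 middle TLR2 libraries and the 1 middle OVA library were the high ones. The TLR2 72 h group holds 3 middle libraries and the OVA 72 h group 1. Without the 8 middle libraries the median of the 44 was 0.084, with 27 positive, and leaving out only OVA 72 h replicate 4 gave 33 calls and a median of 1.26, where 3.75% of all genes tested passed. Tsr1 shares 32.3% of its exonic bases with a gene on the other strand, and Noc2l 20.9%. Both are uncertain, since the sources used here do not give the strand setting.

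TLR7 72 h against OVA 72 h gave 0 of 44, where 3.62% of all genes tested passed. The median was -0.018, 19 values were positive, and 0 were at an unadjusted p under 0.05 in edgeR, where 18.7% of all genes tested were. DESeq2 called 0 of the 44, where it called 6.41% of all genes tested. Nob1 measured 91.1, 78.7, 78.5 and 74.8 CPM at TLR7 72 h, against 79.7, 56.9, 55.4 and 79.5 CPM at OVA 72 h (log2 fold change 0.25 ± 0.17 SE, adjusted p = 0.48). For Utp20, given above for every library, the value was -0.72 ± 0.51 (SE; adjusted p = 0.497). Both overlapped. Without the middle libraries, that is with 4 TLR7 libraries against 3 OVA libraries, the median was 0.46 and 43 of 44 values were positive. At an unadjusted p under 0.05 there were then 30, where 18.4% of all genes tested were, but 0 passed after adjustment, the smallest adjusted p being 0.0723, and Utp20 turned to 0.46. In that fit 1.63% of all genes tested passed. By score, 3 of the 4 TLR7 libraries lay above each of the 3 clear OVA 72 h libraries.

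TLR7 72 h against TLR2 72 h gave 2 lower genes, Heatr1 and Utp20, of 44, where 3.94% of all genes tested were lower and 4.80% passed in either direction. Heatr1 had a log2 fold change of -1.61 ± 0.44 (SE; adjusted p = 0.0402) and Utp20 of -1.91 ± 0.53 (SE; adjusted p = 0.0432). As their values above show, the 4 TLR7 libraries lay below the 3 middle TLR2 libraries and on both sides of the clear TLR2 replicate 2. Without the middle libraries, which leaves 1 TLR2 72 h library, Heatr1 stood at 0.030 and Utp20 at 0.18. Over the 44, the median was -0.72 with all libraries and 0.40 without the middle ones, so the direction turned. Leaving out TLR2 72 h replicate 2 raised the calls to 25, where 11.3% of all genes tested passed, and leaving out any other single library of the 2 groups gave 0, where at most 3.93% did.

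At 24 h, too, 0 of the 44 passed in each agonist comparison, by edgeR and by DESeq2, and 0 were at an unadjusted p under 0.05 in edgeR. Of all genes tested, 0.220% passed for TLR7 against OVA, 0% for TLR2 against OVA and 1.24% for TLR7 against TLR2. With DESeq2 these shares were 1.69%, 2.37% and 6.98%. At an unadjusted p under 0.05 in edgeR they were 10.1%, 15.2% and 21.3%. For TLR7 24 h against OVA 24 h the median was 0.10 with all libraries and 0.12 without the middle ones. Tsr1 measured 473, 527, 259 and 304 CPM at TLR7 24 h, against 183, 352, 197 and 341 CPM at OVA 24 h (log2 fold change 0.54 ± 0.35 SE, adjusted p = 0.668). Heatr1 stood at 0.42 ± 0.43 (SE; adjusted p = 0.866) there, and both genes overlapped between the groups. For TLR2 24 h against OVA 24 h, the 44 values were all positive with a median of 0.35, but without the 2 middle OVA libraries the median was 0.0023 and 23 were positive. Nop14 measured 246, 274, 233 and 247 CPM at TLR2 24 h, against 146, 245, 147 and 213 CPM at OVA 24 h (log2 fold change 0.42 ± 0.23 SE, adjusted p = 0.384), and Npm1 stood at 0.41 ± 0.26 (SE; adjusted p = 0.448). The low OVA libraries were the middle ones, replicates 1 and 3. For TLR7 24 h against TLR2 24 h the median was -0.28, and 0.095 without the middle libraries. None of the 44 was lower in either fit, where 0.604% of all genes tested were lower with all libraries and 0.803% without the middle ones. Emg1 measured 283, 266, 199.9 and 200.2 CPM at TLR7 24 h, against 291, 269, 300.4 and 306 CPM at TLR2 24 h (log2 fold change -0.30 ± 0.20 SE, adjusted p = 0.378). Nhp2 measured 223, 152, 113 and 119.6 CPM at TLR7 24 h, against 249.5, 152, 249.97 and 233 CPM at TLR2 24 h (log2 fold change -0.54 ± 0.37 SE, adjusted p = 0.397). In both the 2 middle TLR7 libraries, replicates 3 and 4, were low.

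**Figure D4:**
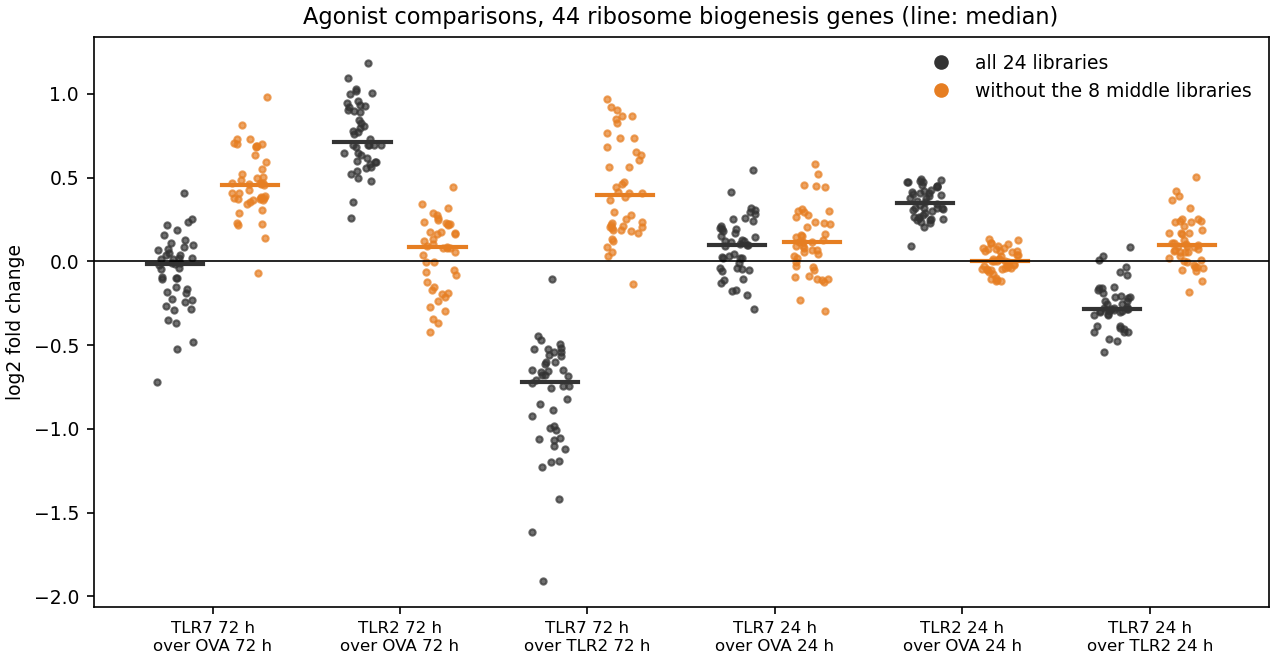
Log2 fold change of each of the 44 genes (points) and their median (line) in the 6 agonist comparisons, with all 24 libraries (dark) and without the 8 middle ones (orange). The median is 0.71 with all libraries and 0.084 without the middle ones for TLR2 over OVA at 72 h, and -0.72 and 0.40 for TLR7 over TLR2 at 72 h.

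The agonist effects were not shown to differ between the times. For the TLR7 effect at 72 h minus that at 24 h, 0 of 44 passed (0 by DESeq2, 0 at an unadjusted p under 0.05 in edgeR), where 0.810% of all genes tested did. The smallest p-values were those of Heatr1 at -0.94 ± 0.61 (SE; adjusted p = 0.475) and Utp20 at -1.04 ± 0.72 (SE; adjusted p = 0.514). For the TLR2 effect, 0 of 44 passed by edgeR and by DESeq2, with 0 at an unadjusted p under 0.05 in edgeR. Of all genes tested, 0% passed by edgeR and 0.0137% by DESeq2, and 6.31% were at an unadjusted p under 0.05 in edgeR. Mybbp1a stood at 0.68 ± 0.55 (SE; adjusted p = 0.999) and Imp4 at 0.37 ± 0.30 (SE; adjusted p = 0.999). The comparisons of 72 h and of the agonists share groups, so their values are not independent of each other.

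Promoters were examined because the 44 genes moved together and Myc binds the E-box CACGTG, the 1 motif searched, which reads the same on both strands. RefSeq promoters (GRCm38.p6, 250 bases before to 50 after the start) were matched for 40 of the 44. The motif was in 11 of the 40 (27.5%), against 11.84% of the 9743 tested genes matched and 8.09% of 27025 genes in all. Of the 12 sites in those 11 genes, 8 began no more than 20 bases before the start or after it. Genes with the motif had a median log2 fold change of -1.77 and those without it -1.99, averaged over the 3 cultures without the middle libraries. That difference was not tested. A match describes letters and is not a site shown to be bound. The 44 were chosen by name, and Myc is known to drive many such genes. The share of 27.5% therefore describes the list chosen and not these cultures. Shown are 4 promoters, 3 with the motif and that of Heatr1 without it, 5′ to 3′ on the gene's strand, with the motif in capitals. They are Utp20 (chr10:88826765-88827064, minus strand), Mybbp1a (chr11:72441077-72441376, plus strand), Imp4 (chr1:34439579-34439878, plus strand) and Heatr1 (chr13:12395125-12395424, plus strand), and the motif begins at base 38 after the start in Utp20, at base 41 after it in Mybbp1a and 121 bases before it in Imp4.
Utp20: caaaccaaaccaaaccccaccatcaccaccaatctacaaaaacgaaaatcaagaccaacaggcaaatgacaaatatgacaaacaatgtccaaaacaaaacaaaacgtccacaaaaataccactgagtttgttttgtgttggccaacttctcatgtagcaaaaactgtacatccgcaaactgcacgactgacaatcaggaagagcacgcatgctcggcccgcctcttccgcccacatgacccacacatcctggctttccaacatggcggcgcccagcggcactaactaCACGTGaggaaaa
Mybbp1a: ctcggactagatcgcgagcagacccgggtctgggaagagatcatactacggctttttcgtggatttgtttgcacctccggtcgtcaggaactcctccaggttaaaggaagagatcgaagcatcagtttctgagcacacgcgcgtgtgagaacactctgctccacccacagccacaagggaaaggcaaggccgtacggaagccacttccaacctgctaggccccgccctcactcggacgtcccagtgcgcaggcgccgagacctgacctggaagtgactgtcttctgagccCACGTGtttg
Imp4: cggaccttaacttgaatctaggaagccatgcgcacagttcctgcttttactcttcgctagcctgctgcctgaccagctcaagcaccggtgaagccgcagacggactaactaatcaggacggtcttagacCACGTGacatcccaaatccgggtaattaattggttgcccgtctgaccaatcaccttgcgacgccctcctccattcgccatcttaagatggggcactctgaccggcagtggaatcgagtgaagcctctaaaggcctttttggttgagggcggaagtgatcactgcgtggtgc
Heatr1: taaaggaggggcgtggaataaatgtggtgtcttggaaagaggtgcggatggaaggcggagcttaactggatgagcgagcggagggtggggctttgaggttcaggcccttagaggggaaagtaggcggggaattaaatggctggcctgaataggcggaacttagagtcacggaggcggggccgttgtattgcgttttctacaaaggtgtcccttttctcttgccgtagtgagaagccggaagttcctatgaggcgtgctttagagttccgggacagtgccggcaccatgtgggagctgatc
By the same average Utp20 and Heatr1 were the 2 genes that fell most, and Utp20 holds the motif in this window while Heatr1 does not. The Heatr1 window begins at 12395125, inside the gene span given above, which begins at 12395027. Bases before that span were therefore not searched for Heatr1. Of the 3 that fell least, Imp4 holds it, and Emg1 and Nob1 do not. Whether the motif has a part in the fall was not tested.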

How the data were processed

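The authors deposited expected counts per gene, estimated and not scaled, with 1 file per library (28.7% of values above 0 are not whole). The submitters' processing notes name STAR, RSEM and edgeR, on GRCm38; the sources used here do not give versions, strand setting or annotation. Counts were rounded and CPM computed with TMM-scaled library sizes (log2 CPM with a prior count of 2). A count of 3 corresponds to 0.110 to 0.286 CPM, which covers counting error only.

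A single edgeR 4.0.16 model held the 24 libraries, by group (quasi-likelihood F test, filterByExpr with a minimum count of 10 and total of 15, 18 residual degrees of freedom, common biological coefficient of variation 0.321), with Benjamini-Hochberg adjustment over 14560 genes and a threshold of 0.05. The SE of a log2 fold change is its size over the square root of F. On simulated data for TLR7 72 h against OVA 72 h (14560 genes), the test found 19 of 100 genes changed 2-fold and 96 of 100 changed 4-fold. All genes were drawn at the common variation, with equal means in all groups apart from the changed genes at TLR7 72 h. No split into clear and middle libraries was drawn. The rates may therefore be too high for groups as spread as OVA 72 h. Alternatives were DESeq2 1.42.0, RLE scaling, a prior count of 0.5, no filter, the replicate number as a block, and fits without the middle libraries (15815 genes, 10 residual degrees of freedom), the shallow ones (14949 genes) or each replicate in turn.

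The 44 genes, their roles and the other lists were chosen with earlier results of these data known. Values are printed for up to 4 genes per comparison with the smallest adjusted p past the threshold (otherwise the 2 with the smallest p), in the groups that comparison is about, for the gene with the highest mean CPM in each role, and for Myc. No replicate pair agreed within sampling noise (chi-square per degree of freedom 4.98 to 283). Positions come from GENCODE M21 (GRCm38). Exons of 20 of the 44 overlap a gene on the other strand, and those of Ncl, Nop56, Nop58 and Gnl3 one on the same strand. Near-identical copies (at least 95% over 100 coding bases, BLAST) exist for 6, holding 2.33% of the own count for Npm1 and under 1% for the others.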

Additional observations from a re-analysis of the deposited data

Results flagged for a closer look

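Within groups of 4 libraries, the gap between an extreme library and its neighbour, divided by the range of the group, exceeded Dixon's 95% critical value in 18 of 120 tests, where chance gives about 1 in 20. The tests are not independent, since the genes moved together and a library set apart is counted again for each gene. At OVA 72 h, replicate 4, a middle library, stood above the other 3, with ratios of 0.931 for Heatr1, 0.913 for Utp20, 0.881 for Utp15, 0.85 for Dkc1, 0.849 for Ddx21 and 0.841 for Utp18. At TLR2 72 h, replicate 2, the clear library there, stood below the others for the score (0.898) and for Utp15 (0.933), Imp4 (0.919), Mybbp1a (0.918), Noc2l (0.857) and Utp20 (0.851). At TLR2 24 h, which holds no middle library, replicate 2 was the one apart for Utp20 (0.851), Mybbp1a (0.916), Utp18 (0.836), Dkc1 (0.899) and Nob1 (0.965). At TLR7 24 h, replicate 1 was the high one for Nob1 (0.921).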

How the results depend on the processing

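By the median of the 44 genes, the fall between 24 h and 72 h kept its direction under every alternative run. So it did in the up to 4 genes per comparison with the smallest adjusted p. The sign of each of the 44 was listed only with all libraries and without the middle ones. The number past the threshold depended on the libraries. With the TLR7 cultures it was 36 to 44 on leaving out 1 library, and 0 without the shallow libraries. Of all genes tested, 26.5% to 46.0% and 0.0334% passed there, in either direction. With the TLR2 cultures, where 25 fell, it was 0 to 24 on leaving out 1 library, 4 with no filter on low counts and 0 without the shallow libraries. Of all genes tested, 9.30% to 35.1%, 15.1% and 19.0% passed there. Without the middle libraries TLR2 72 h is 1 library, so no count is given here. With the OVA cultures it was 0 to 44 on leaving out 1 library and 0 without the shallow ones. Of all genes tested, 0% to 31.8% and 0% passed there. For TLR7 72 h against TLR2 72 h, where 2 fell, it was 0 to 25 on leaving out 1 library, 7 with DESeq2, and 0 without the shallow libraries. Of all genes tested, 0% to 11.3%, 10.4% and 0% passed there. For TLR2 72 h against OVA 72 h, where 0 passed, it was 0 to 33, and the 33 arose without OVA 72 h replicate 4 (3.75% of all genes tested passed there). The remaining comparisons gave 0 throughout, where at most 9.27% of all genes tested passed. In the TLR7 comparison of times without the shallow libraries, TLR7 72 h holds 2 libraries and TLR7 24 h holds 3, of which 2 are middle ones; the cause of the lost calls was not tested.

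Utp20 turned to 0.46 without the middle libraries and 0.47 without OVA 72 h replicate 4 for TLR7 72 h against OVA 72 h (-1.02 to 0.47 on leaving out 1 library), to 0.18 without the middle libraries for TLR7 72 h against TLR2 72 h (Heatr1 to 0.030), and to 0.0080 and 0.13 for the TLR7 effect at 72 h minus 24 h (-1.34 to 0.13 on leaving out 1 library). The difference in score moved by more than the spread without the middle libraries in 4 comparisons, to 0.076 (TLR2 against OVA, 72 h), 0.38 (TLR7 against TLR2, 72 h), -2.07 (TLR2, 72 h against 24 h) and -2.13 (OVA, 72 h against 24 h). Of 424 values of single genes under alternatives, 354 kept direction and side of the threshold, 62 lost the call, 2 gained it and 6 turned.

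The labels do not say whether replicate numbers pair the libraries. Over 60 pairs with the same number, the correlation of deviations from group means ran from -0.616 to 0.525 (median 0.039). The median over pairs with other numbers was -0.028, and 10 of 24 libraries correlated best with their own number. These deviations include the split into clear and middle libraries, which falls on different numbers in different groups. The correlations therefore cannot decide on pairing. With the replicate number as a block, 31 instead of 25 genes fell in the TLR2 cultures and the other counts were unchanged. Of all genes tested, 41.4% instead of 39.0% passed in the TLR2 cultures, in either direction. The labels do not tell what the middle libraries are, or whether any is mixed or mislabelled, which was not tested. The 4 libraries a group, with a common variation of 0.321, limit what the agonist comparisons can show.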

Other observations

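At 24 h, 4 of 30 genes of DNA replication and the G1/S step were lower in TLR7 than in TLR2 cultures, where 0.604% of all genes tested were, with a median log2 fold change of -0.94, and for 24 of the 30 the 4 TLR7 libraries lay below the 4 TLR2 libraries (8.51% of all genes tested did). The median of the 44 ribosome biogenesis genes in the same comparison was -0.28. Without the middle libraries the 2 medians were -0.63 and 0.095, and 4 of the 30 G1/S genes again passed, where 1.29% of all genes tested passed in either direction. For the TLR7 effect at 72 h minus that at 24 h, 0 of the 30 passed, with a median of 0.41 and 5 at an unadjusted p under 0.05. That the G1/S and ribosome biogenesis medians differ was not tested.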
